A study of Mus musculus with 12 samples.

Results

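The genes described here are 9 regulators of oxidative metabolism in fat, made up of the coactivators *Ppargc1a* and *Ppargc1b* (PGC-1α and PGC-1β), the corepressor *Nrip1* (RIP140), the fatty acid receptors *Ppara* and *Ppard*, the retinoid X receptor *Rxrg*, and the estrogen-related receptors *Esrra*, *Esrrb* and *Esrrg*. They were taken by name, and every probe whose annotation gave 1 of these symbols was used. All 9 of the 20660 named genes on the array were represented, by 14 of 55681 probes, and all 14 probes passed the filter that left 32118 for testing. PPARs bind DNA together with a retinoid X receptor and switch on genes of fatty acid uptake and oxidation, whereas ERRs bind as single receptors or pairs to genes of the respiratory chain and citrate cycle. Neither class acts alone. PGC-1α and PGC-1β dock on both and recruit the transcription machinery, PGC-1α being itself induced by cold and β-adrenergic signals in brown fat, and RIP140 docks on the same receptors and represses many of the same genes.

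RNA came from subcutaneous white adipose tissue (scWAT) and brown adipose tissue (BAT) of wild-type (WT) mice and of mice lacking *Lr11* (*Sorl1*), which encodes a sorting receptor of the LDL receptor and VPS10p families. Each of the 4 groups, scWAT and BAT of either genotype, had 3 one-colour Agilent arrays. All animals were 12-week-old C57Bl6/J males on a high-fat diet (HFD) with 60% of its calories from fat, and the WT animals were littermates of the knockouts. One label states 4 weeks of HFD and another that it began at weaning, so the length of the diet is unclear. *Lr11* was absent from the whole body and not from fat alone. The methods give 3 samples for each genotype and tissue without saying whether each was 1 mouse or whether both tissues came from the same mice, so p values measure the spread between these samples, which may be technical in part.

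Levels are the log2 intensity of a probe minus the 75th percentile of its array, so that 0 stands for the brightness of that percentile. Levels of different probes are not comparable with each other. Differences were tested with limma across all 32118 probes, and a gene was called at a Benjamini-Hochberg adjusted p under 0.05. *Sorl1* fell by 4.34 in *Lr11*-/- scWAT (adjusted p=0.0063) and by 3.63 in *Lr11*-/- BAT (adjusted p=0.0319), in the direction of the genotype labels.

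Several arrays stood apart in markers of other cells. All 12 skeletal muscle markers were above background on 5 arrays, WT scWAT 3, *Lr11*-/- scWAT 1, WT BAT 1, WT BAT 3 and *Lr11*-/- BAT 1, with a log2 summed level of 9.86 to 12.40 against 2.13 to 5.23 on the others. WT scWAT 3 and *Lr11*-/- scWAT 1 also carried epithelial markers, at 3.46 and 5.91 against sums below 0 elsewhere. WT scWAT 2 had the lowest adipocyte sum, 8.73 against 10.52 to 11.31, and the highest macrophage sum, 8.38 against 5.62 to 6.77. B lymphocyte sums lay between 1.05 and 2.21 on all arrays. The sum over 8 brown adipocyte markers was 4.90, 2.07 and 8.04 on the WT scWAT arrays, 8.63, 11.70 and 11.82 on the *Lr11*-/- scWAT arrays, and 11.35 to 11.78 in BAT. It varied within both scWAT groups, and arrays 2 and 3 of *Lr11*-/- scWAT were at the level of BAT. In tissue RNA, fewer cells of a type and less RNA per cell cannot be told apart. The part of these cell type differences in the results below was not tested.

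**Figure D1:**
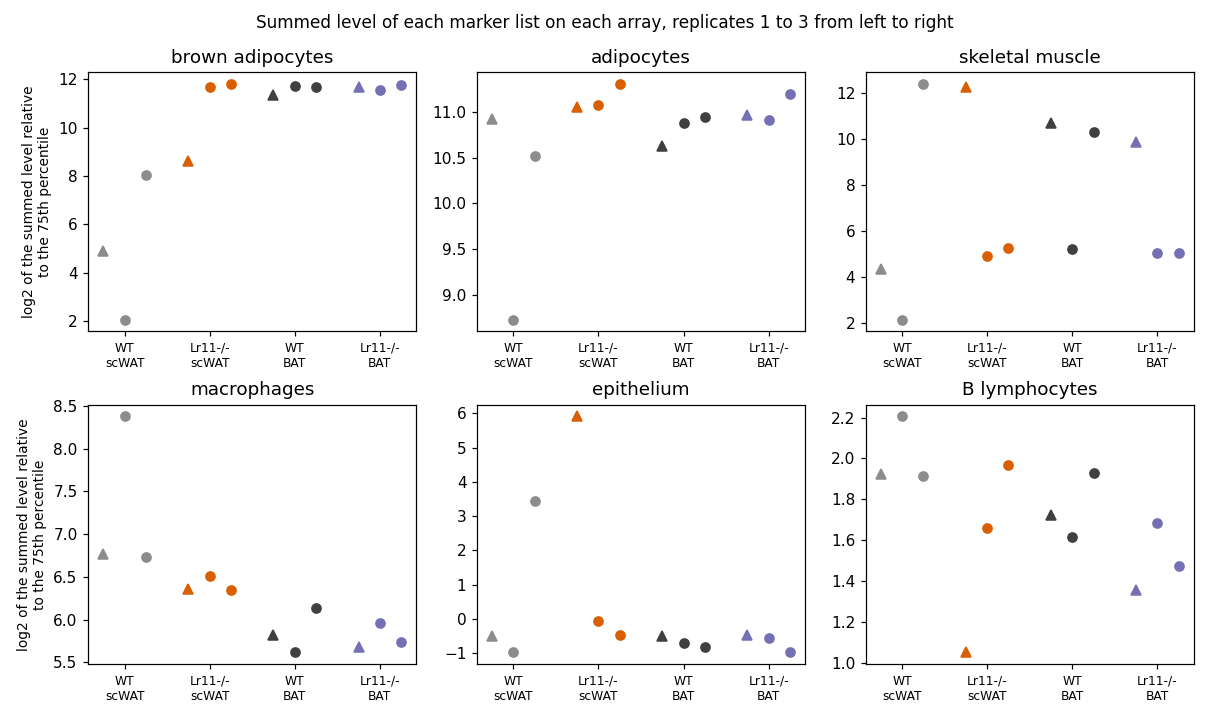
Log2 of the summed level of each marker list (y axis, relative to the array's 75th percentile) on each of the 12 arrays, grouped by genotype and tissue (x axis), with triangles for the first array series and circles for the second. Skeletal muscle sums are at 9.86 to 12.40 on 5 arrays and at 2.13 to 5.23 on the other 7.

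The start regions of 3 members are shown because *Ppargc1a* and *Ppara* were the members called between genotypes and *Rxrg* held the single motif found. They run from 250 bases before to 50 bases after an annotated RefSeq start (assembly GRCm38.p6), 5′ to 3′ on the strand of the gene, at chr5:51567676-51567975 on the minus strand for *Ppargc1a*, at chr15:85735526-85735825 on the plus strand for *Ppara*, and at chr1:167618015-167618314 on the plus strand for the second annotated start of *Rxrg*. Capitals mark the core motif of nuclear receptors, AGGTCA.
Ppargc1a: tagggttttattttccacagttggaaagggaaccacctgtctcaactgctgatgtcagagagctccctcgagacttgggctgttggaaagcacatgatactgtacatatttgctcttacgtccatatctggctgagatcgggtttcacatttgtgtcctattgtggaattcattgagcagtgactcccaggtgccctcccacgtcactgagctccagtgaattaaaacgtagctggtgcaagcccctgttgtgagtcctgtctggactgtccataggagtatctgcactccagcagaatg
Ppara: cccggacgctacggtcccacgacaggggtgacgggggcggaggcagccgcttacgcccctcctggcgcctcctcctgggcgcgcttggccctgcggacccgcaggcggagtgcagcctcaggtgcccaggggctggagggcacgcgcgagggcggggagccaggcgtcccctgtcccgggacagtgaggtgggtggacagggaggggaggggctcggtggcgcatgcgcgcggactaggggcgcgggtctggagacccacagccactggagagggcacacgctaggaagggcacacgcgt
Rxrg, second start: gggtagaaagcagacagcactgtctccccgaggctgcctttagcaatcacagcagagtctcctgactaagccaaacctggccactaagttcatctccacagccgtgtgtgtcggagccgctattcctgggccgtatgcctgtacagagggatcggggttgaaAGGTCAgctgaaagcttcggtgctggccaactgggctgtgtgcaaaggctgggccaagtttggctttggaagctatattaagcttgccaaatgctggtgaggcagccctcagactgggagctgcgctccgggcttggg

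Both strands of 14 such windows, from 8 of the members, were searched for 4 motifs. The core motif AGGTCA was in 1 of the 14, in *Rxrg* with its first base at -88 from the start, and is in 16.3% of all 32851 windows in the table. The ERR element TCAAGGTCA, which contains the core motif, was in 0 of 14 and is in 0.423% of all windows. The direct repeat of the core motif with 1 base between, AGGTCANAGGTCA, the arrangement bound by PPAR with a retinoid X receptor, was in 0 of 14 and is in 0.0396%. The cAMP element TGACGTCA was in 0 of 14 and is in 1.79%. These counts concern the letters in these windows only.

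The first comparison asked what loss of LR11 did in scWAT. *Ppargc1a* and *Ppara* were higher in *Lr11*-/- scWAT than in WT scWAT, and these 2 of 9 genes passed the test, while 5.27% of all tested probes were called in this comparison. The mean was higher in *Lr11*-/- scWAT for 8 of the 9 genes. Of the 9, 5 had an unadjusted p under 0.05, as did 27.6% of all tested probes. The median difference over the 9 was 1.26 on the log2 scale against 0.04 over all tested probes.

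Among the coactivators, *Ppargc1a* stood at -1.66, -2.90 and 0.32 on the WT scWAT arrays and at 0.98, 4.49 and 3.79 on the *Lr11*-/- scWAT arrays. The groups did not overlap, as was the case for 20.4% of all probes, and array 1 of the knockout lay nearer to the highest WT array than to its own group's other arrays. The difference was 4.50±0.91 (log2, SE, *n*=3; adjusted p=0.037 with limma), a 22.7-fold higher level. A second, dimmer *Ppargc1a* probe, above background on 2 of 3 WT scWAT arrays, gave 3.95±0.80 (adjusted p=0.037), an at least 9.60-fold higher level. *Ppargc1b*, the paralogue that supports mitochondrial respiration and lipid synthesis, stood at -1.33, -2.31 and -0.52 in WT and at -0.93, 2.35 and 2.40 in *Lr11*-/- scWAT. Arrays 2 and 3 of the knockout were above every WT array and array 1 lay among them, and the difference of 2.66±0.78 missed the threshold (adjusted p=0.0675). The corepressor *Nrip1* stood at 2.63, 0.75 and 2.32 in WT and at 3.01, 2.27 and 2.60 in *Lr11*-/- scWAT, groups that overlapped, with a difference of 0.73±0.42 (adjusted p=0.286).

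Among the PPARs and their partner, *Ppara* stood at 0.31, -2.51 and 1.98 in WT and at 1.81, 6.04 and 6.23 in *Lr11*-/- scWAT. Array 1 of the knockout was below array 3 of WT, so the groups overlapped, and the difference was 4.77±1.22 (adjusted p=0.0498), just inside the threshold. The other *Ppara* probes fell on either side of it, at 2.27±0.56 (adjusted p=0.0474) without overlap and at 5.19±1.35 (adjusted p=0.0514), the latter at least 30.9-fold because 1 WT array was not well above background. *Ppard*, the PPAR found in most tissues, stood between 1.004 and 2.02 in WT and between 1.27 and 1.47 in *Lr11*-/- scWAT. Its difference was -0.05 with a 95% confidence interval from -0.62 to 0.51 (adjusted p=0.911). *Rxrg*, which pairs with PPARs, stood at 3.49, 2.68 and 3.22 in WT and at 3.58, 3.94 and 4.18 in *Lr11*-/- scWAT. The groups were apart by a narrow margin, and the difference of 0.77±0.24 did not pass (adjusted p=0.0784). Its second probe read -2.46 on WT scWAT 2, far below the 3.12 and 2.66 of the other WT arrays, and so gave a larger and less certain difference of 2.47±1.13 (adjusted p=0.184).

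Of the ERRs, *Esrra*, the general partner of PGC-1 on respiratory genes, stood at 3.79, 3.35 and 4.23 in WT and at 3.81, 5.67 and 5.66 in *Lr11*-/- scWAT. Array 1 of the knockout again lay within the WT range, and the difference was 1.26±0.45 (adjusted p=0.109). *Esrrg*, an ERR of highly oxidative tissues, stood at -2.81, -6.58 and -0.57 in WT, with WT scWAT 2 not well above background, and at -2.81, -0.27 and 0.10 in *Lr11*-/- scWAT. The groups overlapped, and the difference of 2.33±1.23 (adjusted p=0.245) corresponded to an at least 3.08-fold higher level. *Esrrb*, known chiefly from embryonic stem cells, spread from -4.38 to 0.93 over the WT arrays alone and differed by 0.05±0.98 (adjusted p=0.982).

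**Figure D2:**
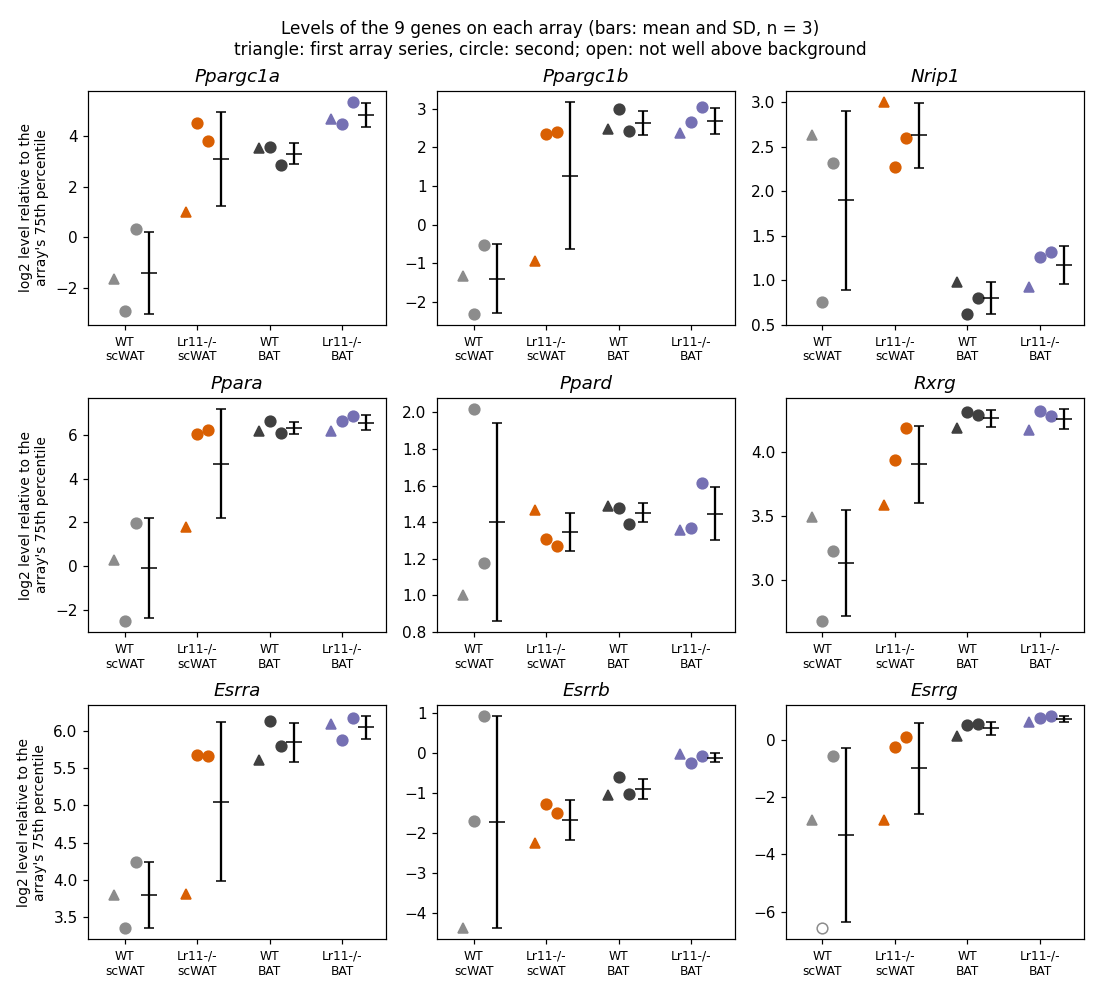
Log2 level of each gene (y axis, relative to the array's 75th percentile, with its own scale per panel) on every array of the 4 groups (x axis), with the mean and SD of 3 arrays beside the points, triangles for the first array series, circles for the second, and open symbols where the probe was not well above background. *Ppargc1a*, *Ppargc1b*, *Ppara* and *Esrra* have their lowest mean in WT scWAT, and array 1 of *Lr11*-/- scWAT lies below arrays 2 and 3 of its group for each of them.

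The scWAT calls depended on single arrays. Replicate 1 of each group belonged to a first array series and replicates 2 and 3 to a second, and the *Ppargc1a* difference was 2.65 in the first and 5.43 in the second. In the second series alone, where 22.6% of all probes were called, 5 members passed, *Ppargc1a* (5.43, adjusted p=0.0159), *Ppargc1b* (3.80, adjusted p=0.00986), *Ppara* (6.40, adjusted p=0.0203), *Esrra* (1.87, adjusted p=0.0148) and *Rxrg* (1.11, adjusted p=0.027). With the series as a block, where 4.05% of all probes were called, only *Ppargc1a* passed (adjusted p=0.038). Leaving out *Lr11*-/- scWAT 1 gave 5 called members (19.8% of all probes), leaving out WT scWAT 3 gave 4 (14.4%) and leaving out WT scWAT 1 gave 3 (13.7%), so that the share over the whole array moved with the members. In contrast, 0 members were called without WT scWAT 2 (0.691% of all probes) or without *Lr11*-/- scWAT 2 (0.0872%) or 3 (0.00934%). Leaving out any 1 of the 6 BAT arrays also gave 0 (0.451% to 0.545%), as did a fit of the scWAT arrays alone (0%). Few or no probes of the whole array were called in these fits, so the counts of 0 do not concern the members in particular. Without the 5 arrays that carried all muscle markers, an alternative chosen after seeing the data in which the lone WT BAT array is assumed to vary like the other groups, 4 members and 11.2% of all probes were called, with *Ppargc1a* at 6.42 (adjusted p=0.0144) and *Ppara* at 7.24 (adjusted p=0.0197). The *Ppargc1a* difference stayed between 3.76 and 6.42 over 24 alternatives and passed in 13 of them, and that of *Ppara* stayed between 3.55 and 7.24 and passed in 8.

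**Figure D3:**
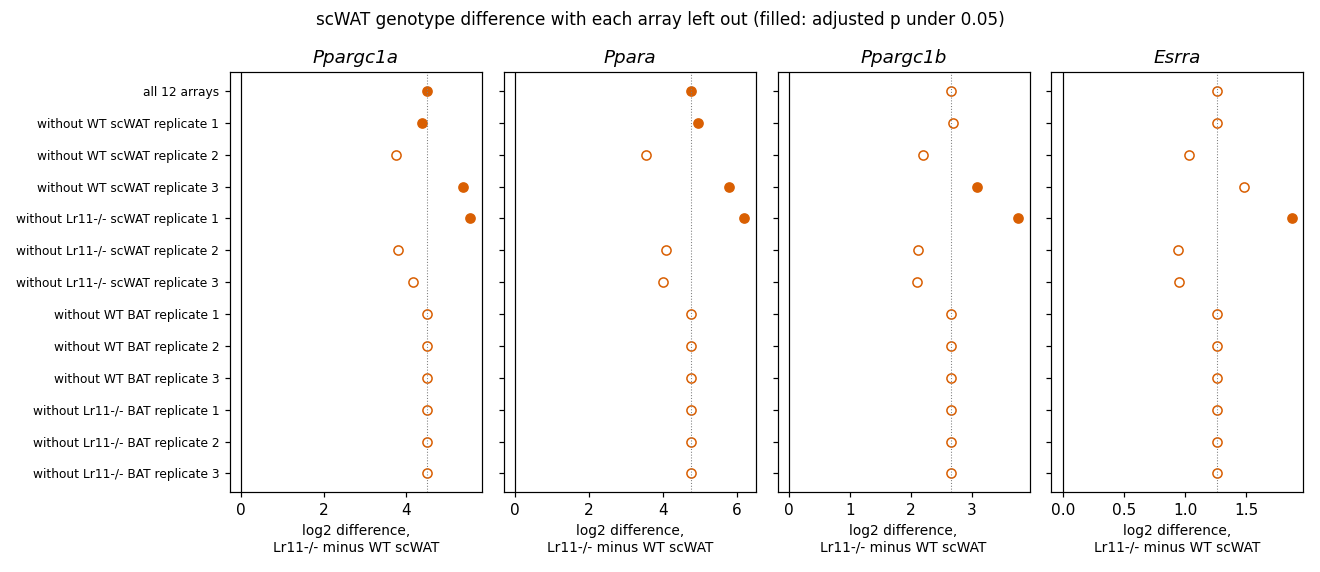
Log2 difference of *Lr11*-/- minus WT scWAT (x axis) for *Ppargc1a*, *Ppara*, *Ppargc1b* and *Esrra* with all 12 arrays and with each array left out (y axis), filled where the adjusted p was under 0.05. The difference of *Ppargc1a* runs from 3.76 without WT scWAT 2 to 5.56 without *Lr11*-/- scWAT 1, and all points lie above 0.

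The second comparison asked the same in BAT, and 0 of the 9 genes passed the limma test, against 0.0187% of all probes called. The unadjusted p was under 0.05 for 0 of the 9, against 2.12% of all probes. *Ppargc1a* had the largest difference of the 9, from 3.52, 3.55 and 2.84 in WT BAT to 4.66, 4.47 and 5.36 in *Lr11*-/- BAT. The groups did not overlap, but the difference of 1.52±0.91 had a 95% confidence interval from -0.50 to 3.55 (adjusted p=1). *Esrrb* (0.78±0.98) and *Esrrg* (0.34±1.23) did not overlap between genotypes either, making 3 of 9 where 12.0% of all probes did so. *Ppara* stood at 6.19, 6.63 and 6.10 in WT and at 6.19, 6.63 and 6.87 in *Lr11*-/- BAT, nearly the same values, and *Ppargc1b* differed by 0.06±0.78. The fit uses 1 spread for all groups, and the BAT arrays lay closer together than the scWAT arrays for most members, with an SD of 0.28 against 2.27 for *Ppara* in the WT groups. In a fit of the BAT arrays alone 0 members were called as well, against 0.0872% of all probes.

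Whether the genotype difference itself differed between scWAT and BAT was tested as an interaction, and 0 members were called, as were 0% of all probes. The unadjusted p was under 0.05 for 4 members, *Ppara* (4.51, adjusted p=0.412), *Ppargc1b* (2.60, adjusted p=0.429), *Ppargc1a* (2.98, adjusted p=0.441) and *Rxrg* (0.78, adjusted p=0.444). Over the whole array it was under 0.05 for 3537 of the 32118 tested probes. A larger effect in scWAT than in BAT was therefore not shown for any member with all arrays. Without *Lr11*-/- scWAT 1, 3 members and 3.71% of all probes were called.

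**Figure D4:**
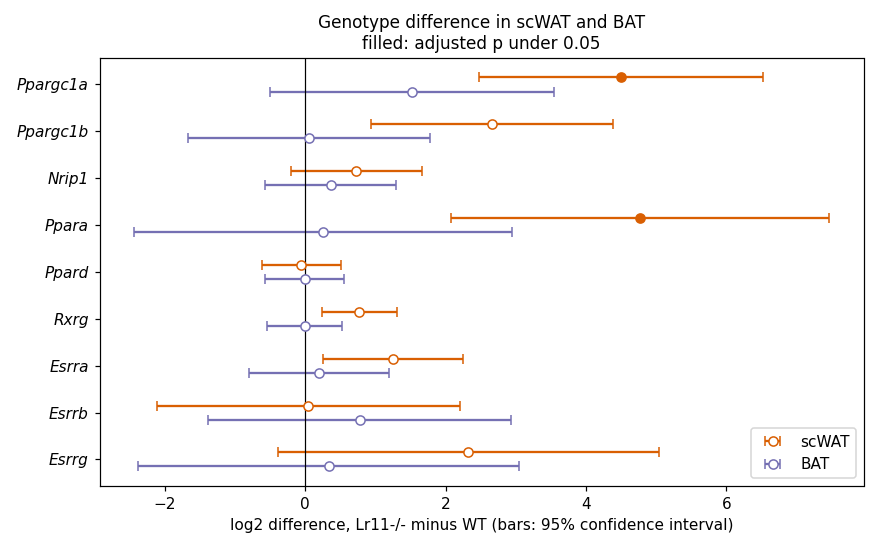
Log2 difference of *Lr11*-/- minus WT (x axis) for the 9 genes (y axis) in scWAT (orange) and BAT (purple) with 95% confidence intervals from the limma fit, filled where the adjusted p was under 0.05. The intervals of *Ppargc1a*, *Ppargc1b*, *Ppara*, *Rxrg* and *Esrra* in scWAT lie above 0, and all 9 intervals in BAT include 0.

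The third comparison set BAT against scWAT in WT mice. Here 6 of the 9 genes were higher in BAT, against 24.8% of all probes called in either direction. *Ppara* was higher by 6.38±1.22 (adjusted p=0.00677), *Ppargc1a* by 4.72±0.91 (adjusted p=0.00707) and *Ppargc1b* by 4.02±0.78 (adjusted p=0.0071). *Esrra* was higher by 2.05±0.45 (adjusted p=0.0112) and *Rxrg* by 1.13±0.24 (adjusted p=0.00986), and *Esrrg* by 3.71±1.23 (adjusted p=0.0488), at least 8.05-fold. For each of these 6 the lowest BAT array was above the highest scWAT array. How many of all probes did so was not counted here, so this describes the 6 genes and does not set them apart. The second *Rxrg* probe, which read low on WT scWAT 2, was not called (2.51±1.13, adjusted p=0.122), with a difference of 0.06 in the first array series and 3.74 in the second. *Ppara*, *Ppargc1a*, *Ppargc1b* and *Esrra* were called in all 23 alternatives, *Rxrg* in 22 and *Esrrg* in 6 of the 22 that tested it. The corepressor *Nrip1* had the opposite direction, at 0.98, 0.62 and 0.80 in WT BAT against 2.63, 0.75 and 2.32 in WT scWAT, and WT scWAT 2 lay within the BAT range. Its difference of -1.10±0.42 was not called (adjusted p=0.0787). *Ppard* differed by 0.05±0.25 and *Esrrb* by 0.83±0.98, neither called.

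In *Lr11*-/- mice 0 of the 9 genes were called between BAT and scWAT, against 0.0405% of all probes, and 2 were under 0.05 before adjustment, *Esrra* (0.9996±0.45, adjusted p=0.553) and *Nrip1* (-1.46±0.42, adjusted p=0.373). Over the whole array 2890 of the 32118 tested probes were under 0.05 before adjustment. *Nrip1* stood at 0.92, 1.26 and 1.32 in BAT and at 3.01, 2.27 and 2.60 in scWAT, without overlap. In this comparison 4 of the 9 members did not overlap, *Nrip1*, *Esrra*, *Esrrb* and *Esrrg*. The share over all probes was not counted. *Ppargc1a* was higher in BAT by 1.74±0.91, made up of 3.67 in the first array series and 0.77 in the second. The tissue comparisons in WT and in *Lr11*-/- mice share no arrays, but each shares its arrays with the genotype comparisons. From low to high, the group means of *Ppargc1a*, *Ppargc1b*, *Ppara*, *Esrra*, *Esrrb* and *Esrrg* ran from WT scWAT through *Lr11*-/- scWAT and WT BAT to *Lr11*-/- BAT. The *Lr11*-/- scWAT and WT BAT arrays overlapped for *Ppargc1a*, *Ppara* and *Esrra*. They were apart for *Esrrb* and *Esrrg*, and for *Ppargc1b* by 2.40 against 2.42.

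The genes that these regulators act on were described from lists, whose counts in scWAT stand beside 5.27% of all probes called and a median of 0.04 over all probes. Of 25 tested ERR and PGC-1 target genes of oxidative metabolism, 11 were called higher and 0 lower in *Lr11*-/- scWAT, with a median difference of 2.24 and all 25 means higher. *Ucp1*, the uncoupling protein of brown fat, was higher by 10.14 (adjusted p=0.0326; at least 1111-fold, as it was above background on 2 of 3 WT arrays), *Cox7a1*, a cytochrome oxidase subunit, by 5.70 (adjusted p=0.0385) and *Ndufs1*, a complex I subunit, by 2.42 (adjusted p=0.0386). Of 26 PPAR target genes of fatty acid oxidation, 10 were called higher and 0 lower, with a median of 2.81. *Hadha*, of the mitochondrial trifunctional protein, was higher by 3.10 (adjusted p=0.037), *Acot2*, a mitochondrial thioesterase, by 3.75 (adjusted p=0.0372) and *Acadvl*, the very long-chain acyl-CoA dehydrogenase, by 3.14 (adjusted p=0.0373). These calls compare the same 6 arrays as those of the members, on which the brown adipocyte sum also differed.

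The counts of the further lists in scWAT stand beside the same 5.27% of all probes. Of 11 nuclear respiratory and mitochondrial transcription factors, 4 were called higher in *Lr11*-/- scWAT and 0 lower, with a median of 0.81. *Tfb1m* (1.28, adjusted p=0.0379) and *Tfb2m* (1.55, adjusted p=0.0422) encode methyltransferase-related factors of mitochondria and *Polg* (1.04, adjusted p=0.0388) the mitochondrial DNA polymerase. Of 16 genes for signals that act on PGC-1α, 2 were called higher, the β-adrenergic receptors *Adrb3* (4.89, adjusted p=0.0422) and *Adrb1* (2.96, adjusted p=0.0464), and 0 lower. *Adrb1* was above background on 2 of 3 WT scWAT arrays, and its level was at least 7.79-fold higher. Of 33 other nuclear receptors and coregulators, 0 were called in either direction, with a median of 0.10. Their differences ran from -1.31 to 4.31. The highest was that of *Perm1*, which was above background on 1 of 3 WT scWAT arrays, with a bound of at least 13.1-fold. In the marker lists, 3 of 8 brown adipocyte genes were called higher in *Lr11*-/- scWAT, all 3 of them also in the list of ERR and PGC-1 targets. The means of 2 others, *Lhx8* (-2.67, adjusted p=0.137) and *Zic1* (-1.65, adjusted p=0.543), were lower there and not called. In the remaining lists 0 of 8 adipocyte, 6 skeletal muscle, 6 B lymphocyte, 4 epithelial and 7 macrophage genes were called. The means of 7 of the 8 adipocyte genes were higher in *Lr11*-/- scWAT, with a median of 1.32 beside 1.26 for the 9 members. Epithelial means were all higher (median 1.11). Macrophage and B lymphocyte means were all lower (medians -0.84 and -0.72), as were 4 of the 6 skeletal muscle means (median -0.61).

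In BAT, 0 genes of any of these lists were called between genotypes, and the medians were 0.09 for ERR and PGC-1 targets and 0.21 for PPAR targets. All 6 tested skeletal muscle genes (median -2.67) and all 6 B lymphocyte genes (median -0.51) had lower means in *Lr11*-/- BAT. Between the tissues of WT mice 24.8% of all probes were called, and the counts of the lists are read against that share. Of the ERR and PGC-1 targets 24 of 25 were higher in BAT, of the PPAR targets 15 were higher and 2 lower, and of the mitochondrial transcription factors 7 of 11 were higher. Closer to that share, 5 of 16 signals were higher, and of the other receptors and coregulators 6 were higher and 1 lower of 33, the PGC-1 related coactivator *Pprc1* (-1.004, adjusted p=0.0104). *Pparg*, the PPAR of adipocyte differentiation, was among the 6 (2.49, adjusted p=0.0177).

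**Figure D5:**
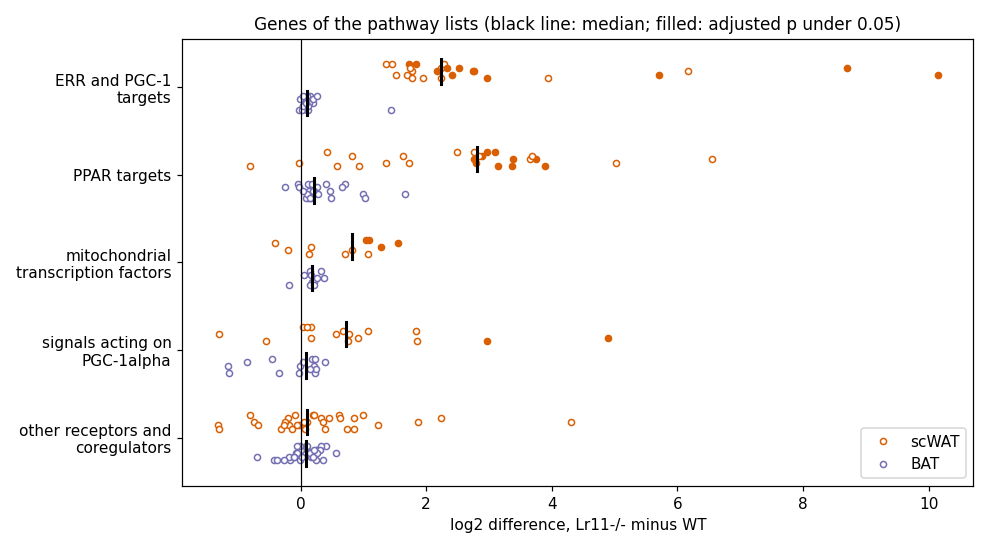
Log2 difference of *Lr11*-/- minus WT (x axis) for every tested gene of 5 pathway lists (y axis) in scWAT (orange) and BAT (purple), with a black line at each median and filled points where the adjusted p was under 0.05. ERR and PGC-1 targets have a median of 2.24 in scWAT and 0.09 in BAT, and other receptors and coregulators have 0.10 in scWAT and 0.08 in BAT.

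Over the 12 arrays, the genes whose levels ran most like those of *Ppara* among 14701 other genes were *Ndufv1* (Pearson's r=0.998), *Sdhc*, *Sucla2*, *Ndufb8* and *Fh1*, which encode parts of the respiratory chain and citrate cycle. Those most like *Ppargc1a* were *Mrpl45* (r=0.984), *Mrpl38*, *Iba57*, *Mrpl15* and *Acss1*, of which 3 encode mitochondrial ribosomal proteins. Those most like *Esrrg* were *Ldhb* (r=0.983), *Cstf1*, *Cxadr*, *Mfn2* and *Il17re*. The arrays share 4 group means, which all such genes follow, so the values are a description. With the group means removed, r was 0.992 for *Ndufv1* with *Ppara* and 0.943 for *Mrpl45* with *Ppargc1a*. These genes were chosen by their r on the same arrays, so these values are no separate support. For *Ppara* the spread within groups lay mostly in scWAT, with an SD of 2.27 in WT and 2.50 in *Lr11*-/- against 0.28 and 0.35 in BAT.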

How the data were processed

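Total RNA was labelled with cyanine-3 and hybridised to 12 one-colour Agilent arrays, 3 per group, and groups were taken from the source labels. The authors deposited spot intensity values as processed by Agilent Feature Extraction 10.10 (per the labels), background-subtracted and not normalized between arrays. A series-wide table deposited beside the scanner files repeats these values (largest difference 0.0).

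Outlier spots were left out, spots of a probe were averaged on the log2 scale, and the 75th percentile of each array (374 to 632) was subtracted. On each array 32377 to 37002 spots exceeded background by the scanner software's call, and 0 were saturated. Probes were tested where all 3 arrays of some group passed that call. Of 28685 probes with a RefSeq accession, 27235 were named through a gene table of GRCm38.p6. A gene was read from its tested probe with the highest mean. limma 3.58.1 in R 4.3.3 (lmFit and eBayes) was fitted to all 12 arrays with 1 mean per group, and p values were adjusted over all tested probes. A bound of a fold sets each dim array at the lowest signal that passed on that array. It bounds the signal of the dim arrays and not the effect, whose uncertainty is in the SE. The steps were tested on simulated data. Precision is limited by the number of arrays and, for dim probes, by the background.

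The members, the lists and their genes were chosen with earlier results of these data known. Of each pathway list, the 3 called genes with the lowest adjusted p in scWAT in each direction were named. *Perm1*, *Pprc1*, *Pparg*, *Lhx8* and *Zic1* were named after their values were seen. The lists were the 5 pathway lists and the markers of adipocytes, brown adipocytes, skeletal muscle, B lymphocytes, macrophages and epithelium. Promoter windows from RefSeq were searched for the 4 motifs given. A further, shorter motif was searched only after those 4 had given a single match, and as it was chosen for that reason its counts are not reported. Alternatives were quantile normalization, median scaling, normexp on the median signals (offset 50), other filters, the array series or slide as a block, the second series alone, trend and robust estimation, the arrays of 1 tissue alone and each array left out. Figures were drawn with matplotlib 3.10.9.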

Additional observations from a re-analysis of the deposited data

How the results depend on the processing

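For scWAT between genotypes, 1 member was called with quantile normalization, median scaling, normexp, the array series as a block or the slide as a block, 0 with no filter or only the scWAT arrays, 5 in the second series alone and 4 without the arrays with all muscle markers (chosen after seeing the data), and 0 to 5 with 1 array left out. Over all probes, where 1692 were called, the count was 1093 with median scaling, 151 with no filter, 911 with the slide as a block, 7262 in the second series alone, 0 with only the scWAT arrays, 3585 without the muscle arrays, and 3 to 6372 with 1 array left out, 3 without *Lr11*-/- scWAT 3 and 6372 without *Lr11*-/- scWAT 1. In BAT, where 6 probes were called, the count was 2 with median scaling, normexp or the filter on all 12 arrays, 0 with no filter, the series block, the second series alone or without the muscle arrays, 1 with the slide block, 3 with trend and robust estimation, 28 with only the BAT arrays, and 0 to 19 with 1 array left out. For the interaction, where 0 probes were called, the count was 1 with normexp or without the muscle arrays, 890 in the second series alone and 0 to 1193 with 1 array left out, and 0 to 3 members were then called. Between tissues in WT, where 7970 probes were called, it was 3992 with the slide block, 2362 without the muscle arrays and 3276 to 10230 with 1 array left out, and in *Lr11*-/- mice, where 13 were called, 8 with median scaling, 3 with normexp, 0 with the filter on all 12 arrays or the second series alone, 1 without the muscle arrays and 5 to 53 with 1 array left out.

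Signs turned only for members that were not called. In scWAT, *Esrrb* was -0.253 with normexp and -1.005 in the second series alone, and -1.287 to 1.369 with 1 array left out, and *Ppard* was 0.0699 with median scaling and -0.252 to 0.256 with 1 array left out. In BAT, *Esrra* was -0.0995 without the muscle arrays. *Ppard* there was 0.0451 with median scaling, 0.0576 in the second series alone, 0.0157 without the muscle arrays and -0.0895 to 0.0402 with 1 array left out. *Ppargc1b* was -0.0178 with quantile normalization, -0.0128 with normexp, -0.14 without the muscle arrays and -0.115 to 0.238 with 1 array left out, and *Rxrg* was 0.0462 with median scaling, 0.00439 in the second series alone and -0.0403 to 0.0402 with 1 array left out. For the interaction, *Esrrb* was 1.201 without the muscle arrays, *Ppard* 0.0247 with median scaling, and with 1 array left out *Esrrb* was -2.067 to 0.589, *Nrip1* -0.212 to 0.728 and *Ppard* -0.247 to 0.261. Between tissues in WT, *Esrrb* was -0.417 in the second series alone and -0.499 to 2.157 with 1 array left out. *Ppard* was -0.0254 with quantile normalization, -0.0124 with normexp, -0.00485 with the slide block, -0.165 in the second series alone, -0.0356 without the muscle arrays and -0.148 to 0.36 with 1 array left out. The cause of these changes was not tested.

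Median scaling moved the median of all probes to 0.166 in scWAT and 0.202 between tissues in WT. The labels carry no replicate numbers. No paired analysis was possible because no label ties an array of 1 group to an array of another. Slide and tissue cannot be told apart in the first array series.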
